A study of Mus musculus with 6 samples.

Results

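Epithelial-mesenchymal transition (EMT) transcription factors and their epithelial antagonists were examined in cultured J110 and SSM3 cells, which are mouse mammary tumour cell lines. The set held 10 of the 52636 genes counted. It was defined by gene name, with Snai1, Snai2, Twist1, Twist2, Zeb1 and Zeb2 as the 6 EMT-inducing factors and Ovol1, Ovol2, Grhl1 and Grhl2 as the 4 epithelial factors. All 10 were found in the table, and 7 of them had enough counts to be tested. J110 cells come from a mammary tumour of mice with an AIB1 transgene, whose promoter is the MMTV LTR, and SSM3 cells from a mammary tumour of 129SvEv mice. The 3 libraries of each line are described as biological replicates of untreated cultures grown to partial confluency. Both media were based on DMEM/F12 with insulin and hydrocortisone, but SSM3 cells received more serum, added glutamine, β-mercaptoethanol and holo-transferrin, and more CO2. The culture conditions and the origin of the lines therefore cannot be told apart.

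EMT is the programme by which epithelial cells lose their junctions and polarity and take on the shape and motility of mesenchymal cells. The zinc finger proteins of the Snail and Zeb families bind E-box sequences in the promoters of epithelial genes such as Cdh1 and repress them through recruited corepressors. Twist proteins are basic helix-loop-helix factors that act in dimers with E proteins. Ovol and Grainyhead-like (Grhl) factors maintain epithelial genes, and Ovol2 and Grhl2 are known to repress Zeb1, which represses them in return. In the mammary gland, Snai2 and Zeb1 are known from basal and stromal cells, while Grhl2 and Ovol factors are known from the epithelium.

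RNA was sequenced from its 3′ end, so that a count stands for a transcript end rather than for transcript length. Total counts ranged from 5209740 to 5416305 in J110 libraries and from 4200785 to 4792941 in SSM3 libraries. Values are given as raw counts and as CPM, which are counts scaled to a common library size after TMM adjustment. Ncoa3, the gene of the AIB1 transgene, was counted 102 to 110 times in the libraries labelled J110, against 181 to 199 times in those labelled SSM3. This gene does not check the labels, so every direction below rests on them. In these bulk libraries, fewer cells of a type and less RNA per cell cannot be told apart. AY036118, at a ribosomal RNA locus, averaged 56847 CPM in J110 against 3378 CPM in SSM3. Epithelial markers summed to between 2677 and 2766 CPM in J110 and to between 11878 and 13073 CPM in SSM3. In J110 the sum came almost wholly from Krt8 and Krt18, with Epcam at 7 counts or fewer in every J110 library. The fibroblast markers Col1a2 and Lum and the endothelial markers Tie1 and Emcn had no count in any library. Endothelial markers still summed to between 158 and 181 CPM in J110, mostly from Cdh5, and to at most 0.425 CPM in SSM3. The fibroblast list summed to between 1.54 and 1.98 CPM in J110 and between 0.398 and 1.91 CPM in SSM3, the leukocyte list to 29.2 to 35.0 and 14.7 to 16.99 CPM, the erythroid list to 0.578 to 0.989 and 1.59 to 1.78 CPM, and the myoepithelial list to 1.04 to 2.70 and 3.19 to 9.15 CPM. The part of these cell types in the results was not tested. Counts on genes of the other line appeared at a low level in some libraries. Among genes at 50 CPM or more in every SSM3 library and at 0 in the remaining J110 libraries, J110 replicate 3 had counts on 24 of 39, at 0.186% of the SSM3 level. J110 replicates 1 and 2 each had counts on 2 of 17 such genes, at 0.0197% and 0.0204%. Among the corresponding genes for SSM3 replicate 2, 44 of 48 had counts, at 0.482% of the J110 level. SSM3 replicate 1 had counts on 4 of 8 such genes at 0.425%, and SSM3 replicate 3 on 2 of 6 at 0.0870%.

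Expression of the factors differed between the lines in opposite directions by role. Snai1, Snai2 and Zeb1, the EMT-inducing factors that could be tested, were lower in SSM3 cells in 3 of 3 cases. Ovol1, Ovol2, Grhl1 and Grhl2 were higher in SSM3 cells in 4 of 4 cases. For all 7 genes no J110 library overlapped an SSM3 library, which was also so for 79.6% of the 12284 genes tested. Differences between these lines were widespread, since 77.9% of the genes tested were called, with 38.6% higher and 39.2% lower in SSM3 (adjusted p below 0.05, edgeR's quasi-likelihood test with Benjamini-Hochberg adjustment). These were 4746 genes higher and 4820 lower, and the balance turned to 5373 higher and 4140 lower when library size was used without TMM. A called difference of at least 4-fold was less common, at 21.7% of genes tested, and all 7 factors passed that mark in the fit. A gene was called restricted to a line if it had at least 20 counts in each of that line's libraries and at most 3 in each of the other's. This held for 6.59% of genes tested, 3.78% in J110 and 2.81% in SSM3, and for 5 of the 7 factors, namely Snai2 and Zeb1 in J110 and Ovol1, Ovol2 and Grhl2 in SSM3. The factors were chosen with earlier results of these data known, so these shares are a description only.

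**Figure D1:**
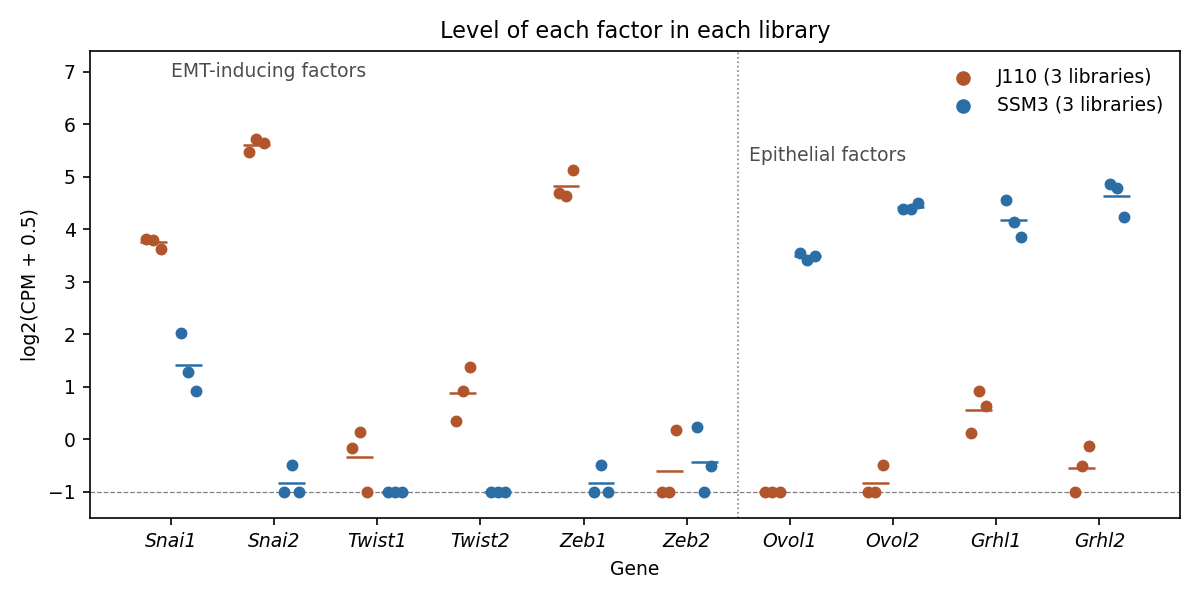
Level of each factor in each library, as log2(CPM + 0.5), with 3 points per line and a bar at their mean. The dashed line marks a count of 0. J110 points of Snai1, Snai2, Twist2 and Zeb1 lie above all SSM3 points, SSM3 points of the 4 epithelial factors lie above all J110 points, and Twist1 and Zeb2 lie near 0 counts in both lines.

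Snai2, which encodes the zinc finger repressor Slug, had the largest ratio between the lines among the EMT-inducing factors. Snai2 (ENSMUSG00000022676, mm10 chromosome 16 from 14705852 to 14709385, forward strand) was counted 227, 262 and 237 times in J110 replicates 1 to 3 and 0, 1 and 0 times in SSM3 replicates 1 to 3. Every J110 library was high and the SSM3 libraries held a single count, in replicate 2. It averaged 48.3 ± 4.14 CPM in J110 against 0.0708 ± 0.123 CPM in SSM3 (SD, n = 3 for both lines), a pooled ratio of 687 with a 95% exact interval from 123 to 27168 (edgeR test, adjusted p = 5.20e-13). Intervals of pooled ratios use the counts summed over the 3 libraries of a line and cover counting error only. Without SSM3 replicate 2 no SSM3 count was left, and Snai2 was at least 153-fold lower in SSM3, taking 3 counts over the line as the floor, and without SSM3 replicate 3 the ratio was 444.

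Snai1, which encodes the related repressor Snail, was the only tested EMT-inducing factor with counts in every library of both lines. Snai1 (ENSMUSG00000042821, chromosome 2 from 167538195 to 167542814, forward strand) had counts of 70, 68 and 57 in J110 against 16, 9 and 7 in SSM3. The J110 libraries were close to each other and the SSM3 libraries were lower and more spread. It averaged 12.9 ± 0.911 CPM in J110 against 2.29 ± 1.13 CPM in SSM3 (SD, n = 3 for both lines), and the log2 fold change from J110 to SSM3 was -2.51 (edgeR test, adjusted p = 4.71e-07, standard error 0.28). Snai1 thus persisted in SSM3 at a pooled ratio of 5.77 below J110 (95% exact interval 3.95 to 8.66), whereas Snai2 was almost absent there.

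Zeb1 encodes a zinc finger and homeodomain repressor, and had the second largest ratio between the lines among the EMT-inducing factors. Zeb1 (ENSMUSG00000024238, chromosome 18 from 5591860 to 5775467, forward strand) had counts of 132, 123 and 166 in J110 against 0, 1 and 0 in SSM3. As for Snai2, the one SSM3 count fell in replicate 2. It averaged 28.1 ± 5.66 CPM in J110 against 0.0708 ± 0.123 CPM in SSM3 (SD, n = 3 for both lines), a pooled ratio of 398 with a 95% exact interval from 71.1 to 15769.8 (edgeR test, adjusted p = 4.61e-11). The J110 libraries varied more than counting alone would give, with a coefficient of variation of 20.1% where sampling of the counts gives 8.44%, and replicate 3 was the highest. Without SSM3 replicate 2, Zeb1 was at least 88.8-fold lower in SSM3, and without SSM3 replicate 3 the ratio was 258. The order of the Snai2 and Zeb1 ratios follows their J110 counts, and their intervals overlap. SSM3 replicate 2 had counts on genes of the other line, at 0.482% of the J110 level. Whether the single counts come from there was not tested. Gm10125 shares 198 exon bases with Zeb1 near its 5′ end and had counts of 0, 1 and 0 in J110 and 0 in each SSM3 library. Zeb2 (ENSMUSG00000026872, chromosome 2 from 44983632 to 45117395, reverse strand), the paralogue of Zeb1, had counts of 0, 0 and 3 in J110 against 3, 0 and 1 in SSM3. Zeb2 was thus barely detected in either line, and its difference could not be measured at this depth.

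Of the Twist genes, which encode basic helix-loop-helix factors, neither passed the filter on low counts. Twist2 (ENSMUSG00000007805, chromosome 1 from 91801461 to 91848028, forward strand) was counted 4, 7 and 10 times in the J110 libraries and never in SSM3. The lines did not overlap, and Twist2 was at least 6.62-fold lower in SSM3 against a floor of 3 counts over the line. With any gene of at least 1 count admitted to the test, its adjusted p was 3.25e-05 by the edgeR test. Leaving out each library in turn gave bounds from 4.28-fold to 8.19-fold. Gm29100, on the opposite strand, shares 1477 of the 3174 exon bases of Twist2, at the 5′ end. Gm29100 had 1 count in each J110 library and 0 in each SSM3 library, and the Twist2 value is uncertain to that extent. Twist1 (ENSMUSG00000035799, chromosome 12 from 33957671 to 33959829, forward strand) was counted 2, 3 and 0 times in the J110 libraries and never in SSM3, so the lines overlapped. Its adjusted p in the same wider test was 0.0900, and that of Zeb2 was 0.768.

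All of the epithelial factors passed the filter. Ovol2 (ENSMUSG00000037279, chromosome 2 from 144305175 to 144332146, reverse strand), which encodes a zinc finger repressor of Zeb1, had counts of 0, 0 and 1 in J110 against 92, 96 and 111 in SSM3. The single J110 count fell in replicate 3. It averaged 0.0696 ± 0.120 CPM in J110 against 20.99 ± 0.954 CPM in SSM3 (SD, n = 3 for both lines), a pooled ratio of 316 with a 95% exact interval from 56.3 to 12523 (edgeR test, adjusted p = 4.91e-11). Without J110 replicate 3 the ratio became a bound of at least 71.8-fold, without J110 replicate 1 it was 207 and without J110 replicate 2 it was 209.8. The SSM3 libraries were as close as counting allows, with a coefficient of variation of 4.55% where sampling of the counts gives 10.02%. 1700108N11Rik, on the opposite strand, shares 359 exon bases with Ovol2 at the 5′ end and had no count in any library.

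Ovol1, the other Ovo-like zinc finger gene, was counted in SSM3 libraries and in no J110 library. Ovol1 (ENSMUSG00000024922, chromosome 19 from 5549136 to 5560646, reverse strand) had 0 counts in each J110 library and 50, 48 and 54 counts in SSM3, or 10.7 ± 0.473 CPM (SD, n = 3). It was at least 53.6-fold higher in SSM3 against a floor of 3 counts over the J110 libraries (edgeR test, adjusted p = 6.31e-09). Leaving out each library in turn gave bounds from 35.1-fold to 54.8-fold. Gm31166, a pseudogene on the opposite strand, shares 690 exon bases with Ovol1 near its 3′ end and had 46, 44 and 48 counts in SSM3 and 0 in each J110 library. The counts of both genes were nearly equal library by library, so reads of Ovol1 and Gm31166 cannot be told apart and the Ovol1 value is uncertain to that extent.

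Grhl2, a Grainyhead-like activator of epithelial junction genes, was counted at 3 reads in all J110 libraries together. Grhl2 (ENSMUSG00000022286, chromosome 15 from 37233036 to 37363569, forward strand) had counts of 0, 1 and 2 in J110 against 129, 127 and 92 in SSM3. It averaged 0.205 ± 0.209 CPM in J110 against 24.7 ± 5.58 CPM in SSM3 (SD, n = 3 for both lines), a pooled ratio of 123 with a 95% exact interval from 41.6 to 597 (edgeR test, adjusted p = 2.60e-10). Every SSM3 library was far above every J110 library, although SSM3 replicate 3 was lower than the others. Without J110 replicate 3 the pooled ratio was 251, without J110 replicate 2 it was 122 and without J110 replicate 1 it was 80.3. Gm16136, an antisense transcript that starts beside Grhl2 and shares 169 exon bases with it at the 5′ end, had 225, 249 and 253 counts in SSM3 and 0 in each J110 library. It was at least 256-fold higher in SSM3 (edgeR test, adjusted p = 1.68e-12). The shared bases lie far from the 3′ end of Grhl2, where these libraries sample the transcript.

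Grhl1, the remaining Grainyhead-like gene of the set, kept a low but steady number of counts in J110. Grhl1 (ENSMUSG00000020656, chromosome 12 from 24572283 to 24617391, forward strand) had counts of 3, 7 and 5 in J110 against 103, 81 and 70 in SSM3. It averaged 1.002 ± 0.405 CPM in J110 against 18.02 ± 4.56 CPM in SSM3 (SD, n = 3 for both lines), a log2 fold change of 4.13 (edgeR test, adjusted p = 5.73e-09, standard error 0.32). This was the smallest difference among the epithelial factors, with a pooled ratio of 17.9 (95% exact interval 10.6 to 32.5). As with Grhl2, the spread between SSM3 libraries was wider than that of counting, with coefficients of variation of 25.3% for Grhl1 and 22.6% for Grhl2 where sampling gives 10.9% and 9.28%.

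**Figure D2:**
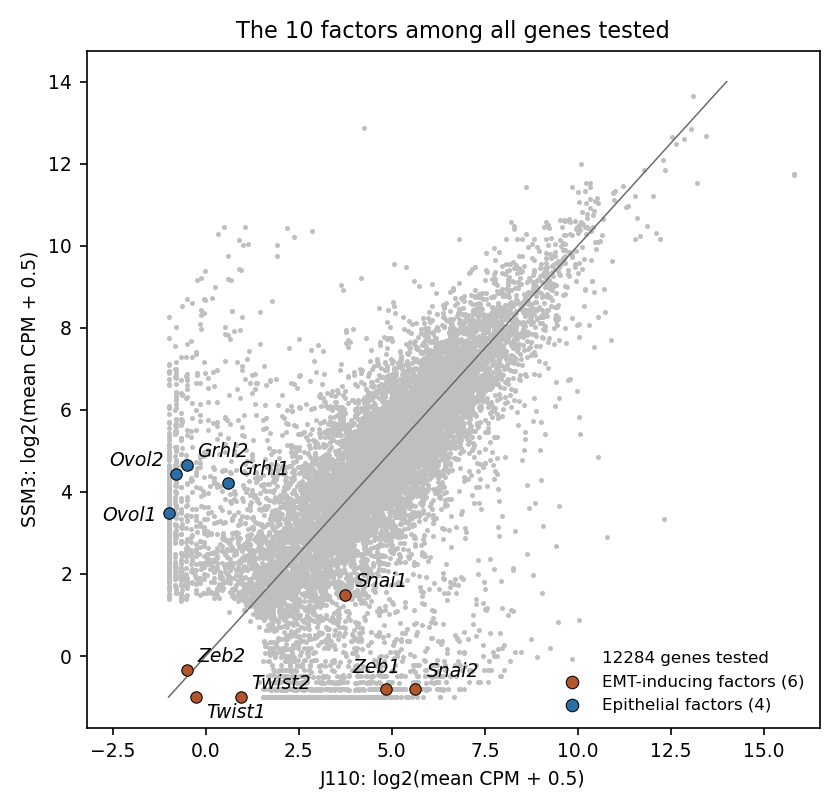
Mean level in SSM3 against mean level in J110, as log2(mean CPM + 0.5), for the 12284 genes tested (grey) and the 10 factors (coloured, named), with a line at equal levels. Zeb1 and Snai2 lie at the lower edge with 1 count in SSM3, the Ovol and Grhl genes lie at the left edge with from 0 to 15 counts in J110, and Snai1 lies closer to the line.

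The nearest relatives of these families did not all follow them. Of 8 related genes, Scrt1, Scrt2, Ovol3 and Grhl3 had no count in any library. Snai3, a further Snail family gene named here after its values were seen, had counts of 0, 2 and 0 in J110 against 11, 17 and 16 in SSM3, and so differed in the direction opposite to Snai1 and Snai2 (pooled ratio 23.3, 95% exact interval 6.07 to 198, edgeR test, adjusted p = 1.48e-05). Tfcp2l1, a gene of the wider Grainyhead superfamily, was higher in SSM3 (log2 fold change 6.07, edgeR test, adjusted p = 6.11e-12, standard error 0.28), with a mean of 0.401 ± 0.201 CPM for J110 against 28.6 ± 0.851 CPM for SSM3 (SD, n = 3 each). Tfcp2 was lower with a log2 fold change of -1.99 (edgeR test, adjusted p = 1.37e-05, standard error 0.30), and Ubp1 did not pass the threshold (adjusted p = 0.221).

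Other transcription factors linked to EMT differed in both directions. Of 12 listed EMT-promoting factors, 8 were tested and all 8 were called, where 77.9% of all genes tested were. Of these 5 were lower and 3 higher in SSM3, and the median log2 fold change was -2.23, against -0.014 over all genes tested. Hmga2, a chromatin protein that promotes Snai1 and Twist1 expression, had counts of 5483, 5000 and 5230 in J110 against 1, 15 and 3 in SSM3. It was the largest difference of the list in that direction, with a log2 fold change of -9.59 (edgeR test, adjusted p = 8.68e-16, standard error 0.22), and 15 of its 19 SSM3 counts fell in replicate 2. Sox9 was also lower in SSM3 (log2 fold change -3.29). Sox4 went the other way, with a mean of 438 ± 15.6 CPM for J110 against 1061 ± 62.7 CPM for SSM3 (SD, n = 3 each). Tbx3 and Klf8 were higher in SSM3 too, Tbx3 with counts of 0, 0 and 2 in J110 against 369, 383 and 431 in SSM3, and Klf8 with no count in J110 and 13, 18 and 29 in SSM3.

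Of 12 other epithelial transcription factors, 7 were tested, with 5 higher and 2 lower in SSM3 where 38.6% and 39.2% of all genes tested were. Their median log2 fold change was 4.83, against -0.014 over all genes tested. Gata3, the luminal lineage factor, had the largest difference at 8.30 (edgeR test, adjusted p = 3.57e-17, standard error 0.13). Foxa1, a partner of the estrogen receptor at chromatin, had a log2 fold change of 1.90. Klf4 and Klf5 were lower in SSM3, with log2 fold changes of -1.40 and -1.002.

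Epithelial genes on which these factors are known to act were compared next. Whether the factors act on them in these cells was not tested. All 22 genes listed as epithelial targets passed the filter, and 22 of 22 were called higher in SSM3, each by at least 4-fold in the fit, where 21.7% of genes tested did so in either direction. Their fitted log2 fold changes ran from 2.06 to 10.4 with a median of 8.19, or 7.74 when a gene with no J110 count is set to its bound. The list was chosen with earlier results of these data known, so its shared direction is partly built in and is a description only. Across the whole table, 1233 genes were called at least 4-fold higher in SSM3. Rab25, which encodes a GTPase of apical recycling, had the largest difference, with counts of 0, 0 and 1 in J110 against 558, 576 and 690 in SSM3. Cdh1, which encodes E-cadherin, was higher in SSM3 with a pooled ratio of 345 (95% exact interval 268 to 452). Esrp2, an epithelial splicing regulator, and Dsp, which encodes desmoplakin, differed least and were well counted in J110. Esrp2 had counts of 145, 116 and 124 in J110 against 452, 531 and 588 in SSM3, a pooled ratio of 4.31 (95% exact interval 3.86 to 4.83). Dsp had counts of 254, 215 and 262 in J110 against 828, 939 and 1140 in SSM3, a pooled ratio of 4.20 (95% exact interval 3.87 to 4.56). In 12 of the 22 genes the highest J110 count, ties included, was in replicate 3. That was the J110 library with the highest level of counts on genes of the other line. Summed over the 22 genes, J110 replicates 1 to 3 had 550, 462 and 545 counts. How much of these J110 counts comes from the other line was not tested.

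Mesenchymal genes went the other way. Of 22 listed, 14 were tested, 12 were called lower in SSM3, each by at least 4-fold where 21.7% of genes tested did so in either direction, 1 was higher and 1 did not pass the threshold. Their median log2 fold change was -5.22. This list was also chosen with earlier results of these data known, so its direction is partly built in and is a description only. Across the whole table, 1436 genes were called at least 4-fold lower in SSM3. Fn1, which encodes fibronectin, averaged 666 ± 35.2 CPM for J110 against 67.2 ± 1.62 CPM for SSM3, and S100a4 was at 1479 ± 51.1 and 28.4 ± 3.60 CPM (SD, n = 3 each). Vim, the intermediate filament gene vimentin, had the largest log2 fold change at -9.07 (edgeR test, adjusted p = 2.28e-14, standard error 0.27), and 87 of its 135 SSM3 counts fell in replicate 2. Mmp14, a membrane-bound metalloproteinase, was the gene that was higher in SSM3 (log2 fold change 1.67, edgeR test, adjusted p = 1.51e-12, standard error 0.069). The 8 genes that were not tested had from 0 to 9 counts in each library, among them Acta2, Mmp2, Postn and Lox.

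**Figure D3:**
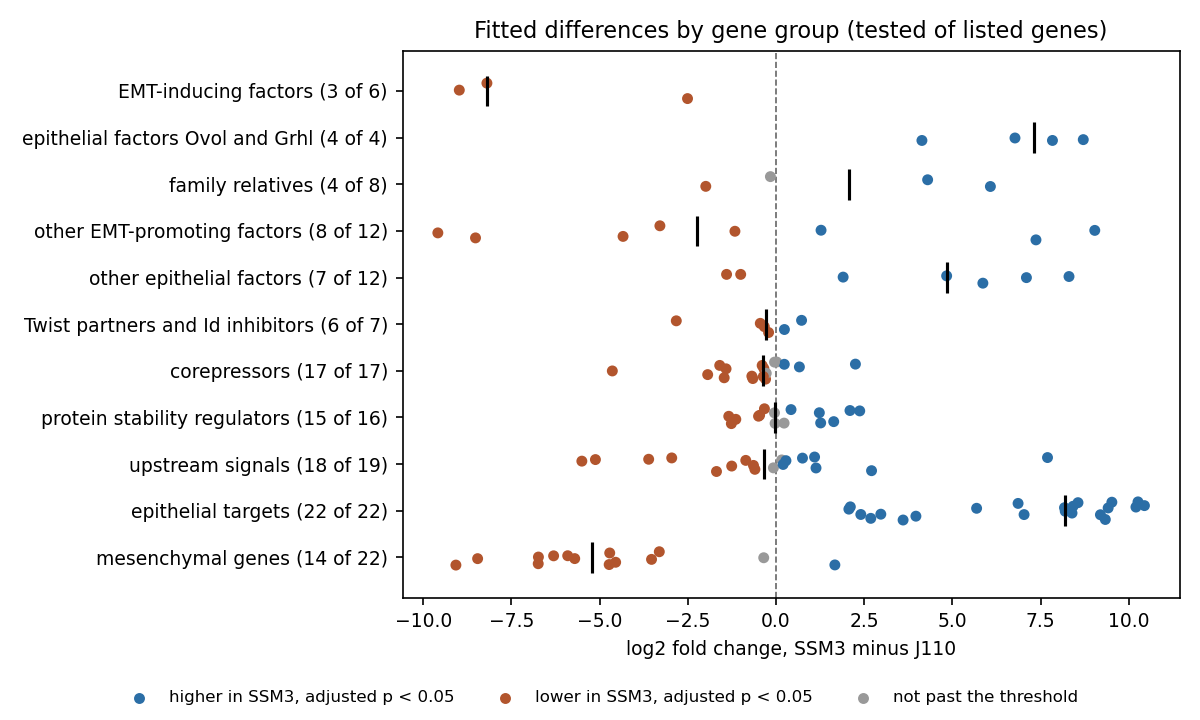
Fitted log2 fold change, SSM3 minus J110, of each tested gene by gene group, with the number tested of the number listed beside each name. Blue and brown points passed the threshold, grey points did not, black ticks are group medians and the dashed line is the median of all genes tested. Epithelial targets lie wholly to the right, between 2.06 and 10.4, and 12 of the 14 mesenchymal genes tested lie at -3.31 or below.

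The promoters of these genes were then searched for the sequences that the factors are known to bind. Windows of 300 bases, from 250 before to 50 after each transcription start, were taken from RefSeq for GRCm38.p6, the assembly of mm10. The Snail and Zeb type of E-box was searched as CACCTG and, for the other strand, CAGGTG, which cannot overlap each other. The epithelial targets were listed as genes on which these factors are known to act, and with earlier results known, so a high share among them is partly built into the list and is a description only. At least one match was found in the windows of 13 of the 14 epithelial targets that had a window (92.9%), against 22.6% of all 27025 genes with a window and 20.6% of the 9105 tested genes with one. 2 or more matches were found in 64.3% of these targets and in 3.32% of all genes. The exception was Spint1. Cdh1, Llgl2, Pkp3, Esrp1, Esrp2, St14, Prss8 and Erbb3 had no window and were not searched. Among mesenchymal genes 1 of 11 had a match (9.09%), and among corepressor genes 1 of 15 (6.67%). Across the whole table a match was found for 32.5% of the 825 genes that were at least 4-fold higher in SSM3 and for 20.4% of the 983 that were at least 4-fold lower. Of the factors themselves, 6 had a window, and Snai1 alone held a match.

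**Figure D4:**
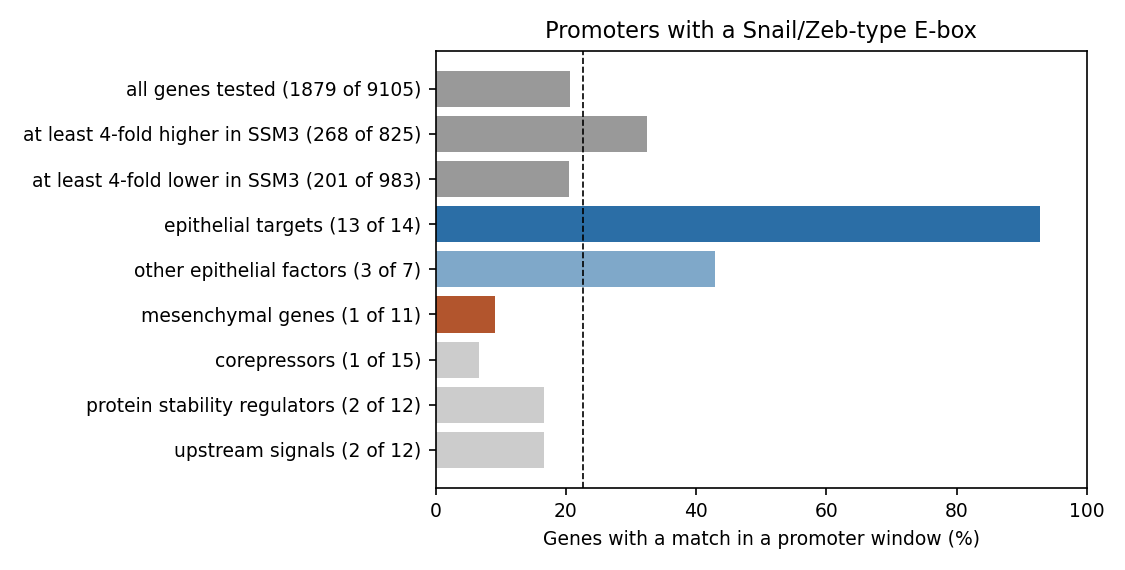
Share of genes with at least one E-box of the Snail and Zeb type in a promoter window, in percent, by gene group, with the number of genes with a match of those with a window beside each name. The dashed line marks 22.6% over all genes with a window. The epithelial targets stand at 92.9%, and the mesenchymal genes and corepressors at 9.09% and 6.67%.

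Promoter windows are shown for 4 epithelial targets, to let the matches be seen in their context. Crb3 and Ap1m2 held the most matches of the group, Epcam encodes the surface marker of epithelial cells, and Rab25 had the largest difference between the lines. Each reads 5′ to 3′ along the gene's strand, and capitals mark the E-boxes, and in Rab25 also the Grainyhead half-site pair.
Crb3, chr17:57061951-57062250, forward strand: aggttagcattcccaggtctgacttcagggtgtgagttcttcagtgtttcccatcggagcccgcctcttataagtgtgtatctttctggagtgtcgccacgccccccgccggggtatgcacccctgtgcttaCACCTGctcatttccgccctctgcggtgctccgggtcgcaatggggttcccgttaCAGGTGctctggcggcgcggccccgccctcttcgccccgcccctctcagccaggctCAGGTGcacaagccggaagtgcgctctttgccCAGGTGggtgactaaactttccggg
Ap1m2, chr9:21312284-21312583, reverse strand: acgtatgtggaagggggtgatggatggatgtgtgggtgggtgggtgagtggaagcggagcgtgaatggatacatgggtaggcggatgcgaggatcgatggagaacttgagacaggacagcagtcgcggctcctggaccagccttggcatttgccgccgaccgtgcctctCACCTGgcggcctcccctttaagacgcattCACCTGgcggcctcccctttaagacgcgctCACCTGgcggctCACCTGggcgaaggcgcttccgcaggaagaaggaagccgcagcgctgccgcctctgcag
Epcam, chr17:87635729-87636028, forward strand: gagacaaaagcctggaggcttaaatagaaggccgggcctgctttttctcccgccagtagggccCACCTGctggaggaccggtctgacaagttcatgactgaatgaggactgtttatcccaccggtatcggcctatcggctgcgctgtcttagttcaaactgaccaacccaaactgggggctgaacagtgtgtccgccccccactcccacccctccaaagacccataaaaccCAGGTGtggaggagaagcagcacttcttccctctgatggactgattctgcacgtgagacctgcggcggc
Rab25, chr3:88548230-88548529, reverse strand: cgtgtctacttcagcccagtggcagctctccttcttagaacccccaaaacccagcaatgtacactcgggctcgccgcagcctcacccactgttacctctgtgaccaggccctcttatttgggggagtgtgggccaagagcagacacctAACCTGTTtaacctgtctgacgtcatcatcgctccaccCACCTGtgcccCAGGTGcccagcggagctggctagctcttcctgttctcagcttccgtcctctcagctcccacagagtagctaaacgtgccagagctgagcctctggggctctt
In Crb3, which encodes a polarity protein, the 4 E-boxes began at bases -118, -63, -7 and 26 from the start. In Ap1m2, which encodes an epithelial adaptor protein for basolateral sorting, 4 lay between -81 and the start, 2 of them within copies of one repeated stretch of sequence. Crb3 had no count in J110 and 147, 139 and 160 counts in SSM3, and was at least 157-fold higher there. Ap1m2 had counts of 0, 1 and 1 in J110 against 259, 279 and 313 in SSM3. Epcam, with its E-boxes at -187 and -19, had counts of 2, 1 and 7 in J110 against 2376, 2404 and 2412 in SSM3.

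Motifs of the epithelial factors were searched in the same windows. The Grainyhead half-site pair, AACNNGTT, reads the same on both strands, and it was found in 3 of 14 epithelial targets, which were Rab25, Muc1 and Patj, against 4.77% of all genes with a window. The core of Ovol sites, CCGTTA or TAACGG, was found in 1 of 14 epithelial targets, Crb3, and in 3.15% of all genes. A match is a string of letters and not a measurement of binding.

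The miR-200 microRNAs are known to repress Zeb1 and Zeb2, which repress them in return. They were added after the values were seen, and the mature forms were not measured by these libraries. Their sequences, from RefSeq, are given with the seed, bases 2 to 8, in capitals, since 2 seeds divide the family.
miR-200b-3p: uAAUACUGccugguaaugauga
miR-200c-3p: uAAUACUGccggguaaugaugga
miR-429-3p: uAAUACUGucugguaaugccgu
miR-200a-3p: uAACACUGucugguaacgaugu
miR-141-3p: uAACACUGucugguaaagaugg
The hairpins of miR-200b, miR-200a and miR-429 lie on chromosome 4 within Gm13648 (156052715 to 156059802, reverse strand), a non-coding transcript. Gm13648 had 0 counts in each J110 library and 17, 25 and 16 counts in SSM3, and was at least 20.4-fold higher in SSM3 (edgeR test, adjusted p = 1.40e-06). Ttll10 spans the same hairpins and had 0 counts in J110 and 6, 8 and 1 in SSM3. Gm15884, which spans the hairpins of miR-200c and miR-141 on chromosome 6, had counts of 9, 10 and 3 in J110 against 4, 0 and 4 in SSM3. The hairpin genes themselves had no count in any library.

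Genes for proteins that work with the factors were compared as well. Of 7 dimer partners and Id inhibitors of Twist proteins, 6 were tested and all 6 passed the threshold, as 77.9% of all genes tested did, with 2 higher and 4 lower in SSM3 and a median log2 fold change of -0.27. Id2, which encodes an inhibitor of basic helix-loop-helix factors, differed most, with a mean of 157 ± 18.9 CPM for J110 against 22.2 ± 0.829 CPM for SSM3 (SD, n = 3 each). Tcf12, an E protein, was higher in SSM3 (log2 fold change 0.72), and the differences of Id1, Id3 and Tcf3 were 0.33 or smaller in size. All 17 corepressor genes were tested, with 3 higher, 11 lower and 3 not past the threshold, and a median of -0.36. Over all genes tested 77.9% were called, 38.6% higher and 39.2% lower. Ctbp2, whose product is recruited by Zeb1, was lower with a log2 fold change of -1.42, while Ctbp1 was at -0.35. Wtip, a LIM protein that binds Snail proteins, differed most, with counts of 21, 25 and 16 in J110 against 0, 2 and 0 in SSM3. The higher ones were Bmi1, a Polycomb protein (log2 fold change 2.25), Suv39h1, a histone methyltransferase (0.66), and Smarca4, the chromatin remodeller Brg1 (0.23).

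Of 16 genes listed for the stability of the Snail and Zeb proteins, 15 were tested, 6 were higher and 6 lower in SSM3, with a median log2 fold change of -0.027. These counts are near the background of 38.6% higher and 39.2% lower over all genes tested. Fbxw11, a subunit of the ubiquitin ligase that marks phosphorylated Snail for degradation, was higher with a log2 fold change of 1.63 (edgeR test, adjusted p = 1.65e-11, standard error 0.081). Prkd1, a kinase that phosphorylates Snail, was higher by 2.37 on the log2 scale. Csnk1e, a casein kinase gene, was higher by 0.42 on the log2 scale. Gsk3b was lower with a log2 fold change of -0.50, and Fbxl14, another ligase subunit for Snail, with -1.34.

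Among 19 upstream signalling genes, 18 were tested, 7 were higher and 9 lower in SSM3, with a median of -0.34, where 38.6% of all genes tested were higher and 39.2% lower. Tgfbr3, a co-receptor for TGF-β, had counts of 14, 28 and 23 in J110 against 1, 0 and 0 in SSM3. Wnt5a, a ligand, differed most in the other direction, with counts of 6, 7 and 9 in J110 against 1545, 1478 and 1344 in SSM3. Stat3 was higher in SSM3 (log2 fold change 2.71), and Ctnnb1, which encodes β-catenin, was lower with -1.26. Rela, Notch1 and Hif1a were higher in SSM3, with log2 fold changes of 1.13, 1.09 and 0.20. Tgfb2, named after its values were seen, had counts of 34, 46 and 43 in J110 against 1, 0 and 2 in SSM3 (edgeR test, adjusted p = 5.63e-08), while Tgfb1 (adjusted p = 0.681) and Tgfb3 (adjusted p = 0.586) did not pass the threshold. Tgfbr2, which encodes a TGF-β receptor, and Smad7, which encodes an inhibitor of that signal, were also lower in SSM3, at -2.96 and -3.61 on the log2 scale. Tgfbr1 and Smad4 were lower too, at -0.60 and -0.64, while Smad3 and Smad2, which carry the signal to the nucleus, were higher at 0.75 and 0.28. Several of the genes named share exon bases with another gene and are uncertain to that extent, among them Stat3 with Stat5a, Ctnnb1 with Ulk4, Ctbp2 with Fgfr2, Ubp1 with Fbxl2, Crb3 with Dennd1c, Esrp2 with Nfatc3 and Fn1 with Apol7d.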

How the data were processed

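The processed file held raw counts for 52636 genes in 6 libraries, 3 of J110 and 3 of SSM3 cells. The authors made 3′ end libraries with the QuantSeq kit, removed low quality reads, trimmed them with cutadapt 2.1, mapped them to mm10 with HISAT2 2.0.4 and deposited counts per gene from featureCounts (Subread 2.0.0), without normalisation. The strand setting and how reads over several genes were assigned are not given in the sources used here. Reads carried no stated molecular identifiers, so intervals cover counting error only.

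Gene identifiers were matched to GENCODE M21 (99.7%). After filterByExpr and TMM scaling, lines were compared by edgeR 4.0.16 (quasi-likelihood fit, R 4.3.3), with the line as the only term and an adjusted p threshold of 0.05 over all 12284 genes tested. Standard errors are the log2 fold change divided by the square root of F. The test was tried on simulated counts before use. Pooled ratios used summed counts over TMM-scaled library sizes with exact 95% binomial intervals, and 3 counts over a line as the floor where it had none. Libraries of one line differed by more than sampling noise (chi-square per degree of freedom from 2.29 to 6.01). Alternatives were DESeq2 1.42.0, limma 3.58.1 (voom), other scalings, filters and depths, a replicate block and leaving out each library.

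The 10 factors and the gene lists were chosen with earlier results of these data known. All 10 factors are named. In each other list, the named genes are the 3 with the highest mean log2 CPM, the largest called difference in each direction and up to 4 called genes against the majority, besides genes whose exons overlap those of a factor. Snai3, Tgfb2, Tgfbr1, Tgfbr2, Smad2, Smad3, Smad4, Smad7, the cell type markers, AY036118, Epcam, Crb3, Ap1m2, Spint1, Muc1, Patj, the miR-200 transcripts, untested and uncalled list genes and the gene of the label check were named after their values were seen. Some items are not reported here.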

Additional observations from a re-analysis of the deposited data

How the results depend on the processing

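All 7 tested factors kept their direction and stayed past the threshold under 16 of the 17 alternatives. Under the remaining one, at least 10 counts in every library, no factor could be tested, since each had fewer than 10 counts in at least 1 library. That filter left 0 related genes called, 3 EMT-promoting factors, 4 other epithelial factors, 6 epithelial targets and 5 mesenchymal genes, with fewer genes tested by construction. Requiring a change above 2-fold with glmTreat left 1 Twist partner or Id gene, 6 corepressors, 6 stability genes and 8 upstream genes called. The other 176 of 185 list counts stayed within 1.5 times of the reported count. Library size without TMM moved the median over all genes from -0.014 to 0.16, and turned Ubp1 from -0.16 to 0.016. It also gave 5373 genes higher and 4140 lower in SSM3 in place of 4746 and 4820. Without the ribosomal RNA locus 4704 were higher and 4837 lower. Of 721 values for 43 other named genes, 31 lost the threshold, all with direction kept. Over these alternatives the log2 fold change of Snai1 ran from -2.95 to -2.24, and the highest adjusted p of any tested factor was 3.46e-05, for Snai1. The 2-fold requirement left 4272 genes called of 9566.

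The same replicate numbers in both lines were not taken to pair the libraries. Deviations from the line means of same-numbered libraries correlated between 0.012 and 0.027, and those of the other pairs between -0.0207 and 0.0076. Each library thus correlated best with its own number, but weakly, and whether same-numbered libraries were handled together cannot be told from these values. With a replicate block 9481 genes were called in place of 9566, and no call on a factor was lost. Depth limits Twist1, Twist2 and Zeb2, for which 3 counts in a library correspond to 0.578 to 0.668 CPM.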
